A study of Mus musculus with 3 samples.

Results

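The mitochondrial ribosomal proteins are the nuclear-encoded proteins of the ribosome inside mitochondria. They were taken here as all genes whose symbol starts with Mrpl or Mrps followed by a digit, which gave 76 of the 19505 genes on the arrays. Of these, 50 encode proteins of the large subunit, 25 proteins of the small subunit, and 1, Mrps36, carries the name but encodes a subunit of the oxoglutarate dehydrogenase complex. Gene expression was measured in heart RNA of wild-type C57BL/6 mice, all labelled male and 10 weeks old, on 3 Affymetrix arrays, 1 array per group. The sham group, labelled as control, had the silk taken away without a ligature, the AAC group had abdominal aortic constriction, which loads the left ventricle with pressure, and the AAC + DAPA group received dapagliflozin, which blocks the kidney glucose transporter SGLT2, after AAC. The dose was 25 mg/kg per day in the drinking water for 12 weeks. The labelled age can therefore not be the age at sampling, and the label does not say at which point it applies. Sham and AAC mice were given saline over that period, according to the study's methods. Whether an array holds RNA of 1 mouse or of several remains not given in the sources used here.

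The mitochondrial ribosome translates the few messenger RNAs that mitochondrial DNA encodes, all of them for subunits of the respiratory chain and ATP synthase. Its RNAs come from mitochondrial DNA, while every protein of both subunits is encoded in the nucleus, made in the cytosol and imported. Part of these proteins have a counterpart in the ribosome of bacteria and the others are found only in mitochondria. The heart depends on mitochondrial ATP, and in humans inherited defects of single mitochondrial ribosomal proteins, MRPL3 and MRPL44 among them, have been found in infants with hypertrophic cardiomyopathy.

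Expression is given on the log2 scale, as normalized and deposited by the authors, and a difference is a log2 difference between 2 arrays. Genes that differed 1.5-fold or more between arrays were counted. Since each group had 1 array, no test was possible, and no difference has a replicate check. Each of the 76 genes was read by 1 probe. The 55 genes on the arrays with several probes give the only measure of error, an SD between probes of 1 gene of 0.31 for the difference between AAC and sham, 0.26 for AAC + DAPA against AAC and 0.19 for AAC + DAPA against sham. This SD holds no difference between animals. None of the 76 genes lay under the 25th percentile of an array, and 73 lay above the median on the AAC array and 74 on each of the others. Values of different probes are not compared with each other as levels.

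The 12 cardiomyocyte markers were high on every array, with a mean of 17.69 with sham, 17.69 with AAC and 17.72 with AAC + DAPA. Of these, Actc1 lay 1.54-fold below sham in AAC and Mybpc3 1.72-fold above it. Against sham, AAC + DAPA was 1.56-fold lower for Actc1 and 1.53-fold higher for Mybpc3. The 3 measured Y-linked genes set the AAC array apart, and Eif2s3y stood at 2.50 with sham, 11.71 with AAC and 2.72 with AAC + DAPA although all mice are labelled male. The sham and AAC + DAPA arrays thus go against that label, and whether each array holds the animals its label names cannot be told from these data. Of 12 measured markers of macrophages and monocytes, 7 exceeded sham 1.5-fold or more in AAC, and 7 lay below AAC by that much in AAC + DAPA. Their median difference was 0.895 for AAC against sham and −0.81 for AAC + DAPA against AAC. Of the 3 measured red blood cell markers, Alas2 stood at 7.63 with sham, 11.92 with AAC and 8.63 with AAC + DAPA. Slc4a1 stood at 7.54, 8.92 and 7.99 in the same order, and Epb42 at 3.68 on all arrays, under the 25th percentile of each. These differences run alongside every comparison with the AAC array. Of 6 measured fibroblast markers, 2, Col3a1 and Lum, lay at least 1.5-fold below sham in AAC and also in AAC + DAPA. The median difference from sham of the 6 was −0.15 in AAC and −0.38 in AAC + DAPA, while Dcn lay above sham, at 17.68, 17.97 and 17.87. None of the mitochondrial ribosomal protein genes lies on the X or Y chromosome. The part of sex, sample identity, immune cells, blood or fibroblasts in the results was not tested and, with 1 array per group, cannot be told apart from the condition. In tissue RNA, fewer cells of a type and less RNA per cell cannot be told apart either.

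Compared with sham, the mitochondrial ribosomal proteins lay mostly lower in AAC. At least 1.5-fold lower were 9 of the 76 genes, 11.8%, against 4.98% of all genes, and 1 was at least 1.5-fold higher, 1.32%, against 4.88% of all genes. Among all genes above the median of each array, where 73 of the 76 lie, 7.94% were lower and 6.29% higher. The median difference was −0.14, with quartiles of −0.40 and 0.00, while the median over all genes was 0.00. By sign alone 51 genes were lower, 16 higher and 9 equal, so that 67.1% lay below sham, against 36.2% of all genes. The size of the differences, taken without sign, was a root mean square of 0.382 for the mitochondrial ribosomal proteins and 0.413 for all genes.

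**Figure D1:**
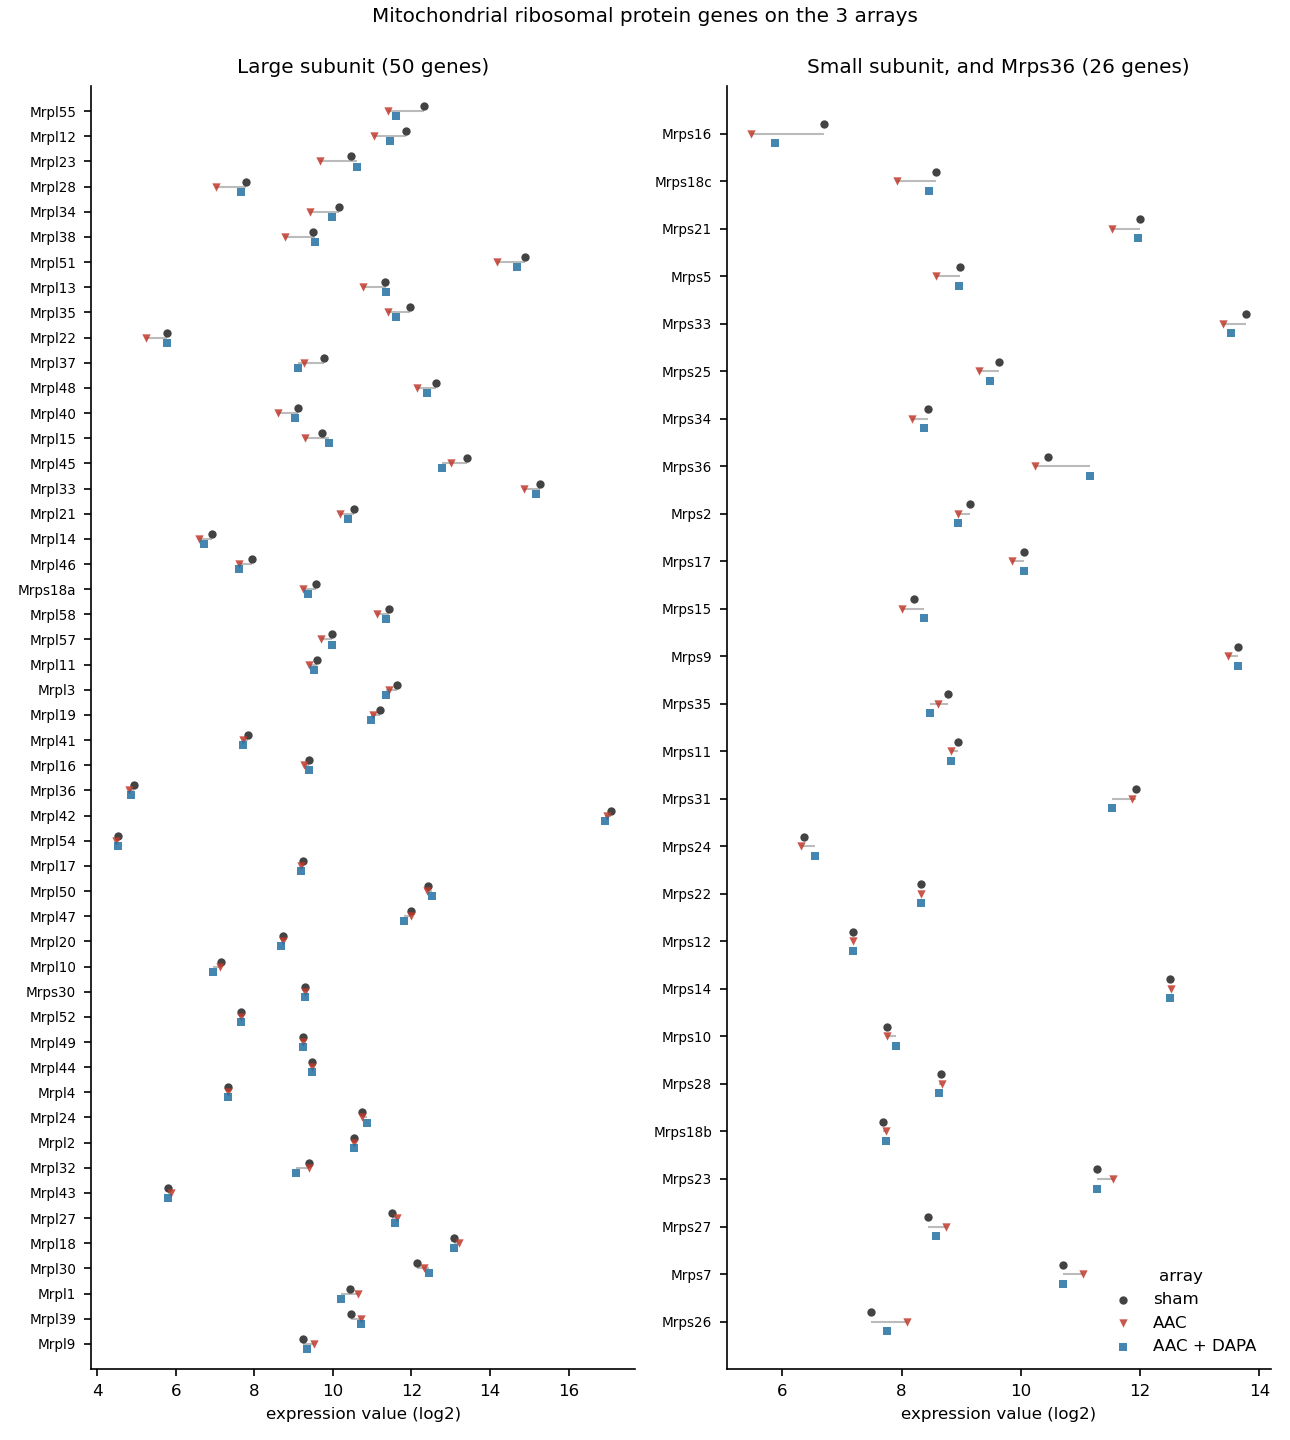
Expression value (log2) of each of the 76 genes on the sham, AAC and AAC + DAPA array, with 1 array per group, in order of the difference between AAC and sham. The grey line spans the 3 values. Genes at the top, from Mrpl55 and Mrps16 on, have their AAC value left of sham, and 8 genes carry the same value on all arrays.

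In the small subunit, the largest difference of all members was that of Mrps16, the counterpart of bacterial S16, whose loss in humans causes a combined deficiency of the respiratory chain. Mrps16 stood at 6.70 with sham, 5.48 with AAC and 5.87 with AAC + DAPA, 2.33-fold lower in AAC than in sham. Mrps18c, the counterpart of bacterial S18, stood at 8.57, 7.93 and 8.46 in the same order, 1.56-fold lower in AAC. The Mrps18 family has further members. Mrps18a, now placed in the large subunit, stood at 9.56, 9.25 and 9.36, and Mrps18b, a protein found only in mitochondrial ribosomes, at 7.68, 7.74 and 7.74, so that the differences in this family were not of equal size. Mrps26, a mitochondria-specific protein, was the 1 member that passed the threshold upward, at 7.48 with sham, 8.09 with AAC and 7.75 with AAC + DAPA, which is 1.53-fold. With each array centred on its median this difference was 0.55, inside the threshold. Mrps7 and Mrps27 lay in the same direction, by 0.33 and 0.31. Mrps5, an RNA-binding protein at the messenger RNA entry of the small subunit, stood at 8.98, 8.58 and 8.97. Of the 15 small subunit proteins with a bacterial counterpart 2 were at least 1.5-fold lower and the median difference was −0.17. Of the 10 mitochondria-specific proteins 0 were lower, 1 was higher and the median was −0.03. With 4.98% of all genes lower and 4.88% higher, classes of this size would hold few such genes, and the classes were not compared by a test.

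In the large subunit 7 of 50 genes, 14%, were at least 1.5-fold lower in AAC and 0 were higher, against 4.98% and 4.88% of all genes. Among all genes above the median of each array the shares were 7.94% and 6.29%. Mrpl55, the counterpart of bacterial L31, stood at 12.33 with sham, 11.41 with AAC and 11.60 with AAC + DAPA, 1.89-fold lower in AAC. Mrpl12, which forms the stalk where translation factors bind, stood at 11.87, 11.05 and 11.46, 1.77-fold lower. Both had their AAC + DAPA value between the other arrays. Mrpl23, a protein at the exit of the tunnel through which the new chain leaves, stood at 10.46, 9.68 and 10.62, 1.72-fold lower in AAC. Mrpl28, the counterpart of bacterial L28, stood at 7.80, 7.03 and 7.66, 1.71-fold lower. Mrpl34, a small protein with a bacterial counterpart, stood at 10.15, 9.42 and 9.99, 1.66-fold lower. In each of these the AAC array was the lowest. Among mitochondria-specific proteins, Mrpl38 of the central protuberance stood at 9.50, 8.78 and 9.55, 1.65-fold lower in AAC, and Mrpl51 at 14.90, 14.19 and 14.69, 1.64-fold lower. Mrpl13, which has a bacterial counterpart too, lay just inside the threshold, at 11.34, 10.76 and 11.36, 1.49-fold lower in AAC. On the other side, the largest difference upward was that of Mrpl9, 0.29, under the SD between probes of 0.31. The median difference was −0.14 for the 30 large subunit proteins with a bacterial counterpart and −0.20 for the 20 mitochondria-specific ones.

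**Figure D2:**
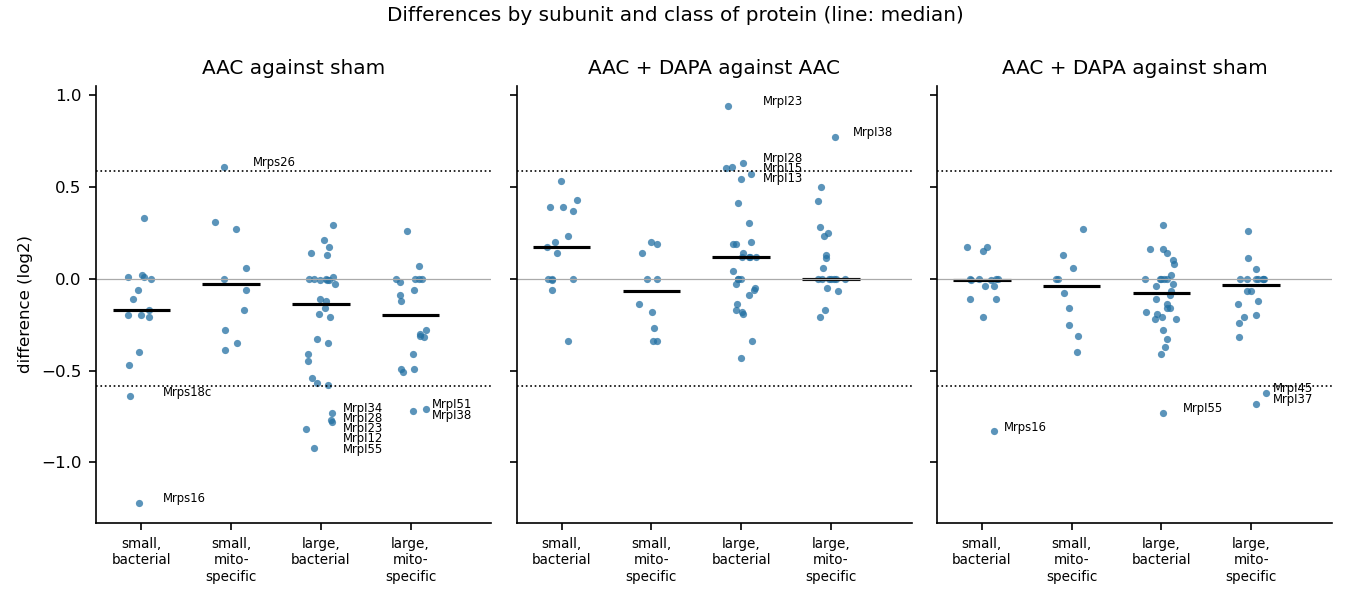
Difference (log2) of each gene in the 3 comparisons, by subunit and by whether the protein has a bacterial counterpart (points: genes, with random horizontal spread, black line: median, dotted lines: 1.5-fold). Mrps36 is left out. In AAC against sham the medians of the 4 classes lie between −0.20 and −0.03, and the named genes beyond the lower dotted line are the 9 that were at least 1.5-fold lower.

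Compared with AAC, AAC + DAPA was at least 1.5-fold higher for 6 of the 76 genes, 7.89%, against 4.16% of all genes, and 0 were lower, against 4.18% of all genes. The median difference was 0.05 and that of all genes 0.00, and 39 genes were higher, 22 lower and 15 equal. The shares above and below zero were 51.3% and 28.9%, against 36.7% and 38.4% of all genes. Among genes above the median of each array, 5.54% were at least 1.5-fold higher and 4.49% lower. With each array centred on its own median, 9 genes were higher and 0 lower, against 5.57% and 3.20% of all genes. This comparison uses the same AAC array as that with sham, so an error on that array enters both with opposite sign, and the values of all 3 arrays are given for each gene. Mrpl23 was 1.92-fold above its AAC value, Mrpl38 1.71-fold and Mrpl28 1.55-fold, and all of these had values in AAC + DAPA within 0.16 of sham. Mrpl15, a counterpart of bacterial L15, stood at 9.73 with sham, 9.28 with AAC and 9.89 with AAC + DAPA, 1.53-fold above AAC. Mrpl13 was 1.52-fold higher, at 11.36 against 11.34 in sham. These 5 genes belong to the large subunit. The sixth was Mrps36, which is not a ribosomal protein, at 10.46 with sham, 10.24 with AAC and 11.16 with AAC + DAPA, 1.89-fold higher than in AAC. Leaving out Mrps36, 5 genes remained higher. No gene of the small subunit passed 1.5-fold, and the largest difference there was that of Mrps18c, 0.53, which became 0.60 and passed with each array centred on its median. Higher were thus 5 of 50 in the large subunit, 10%, and 0 of 25 in the small, against 4.16% of all genes. At that share 25 genes would hold few or none, and the subunits were not compared by a test.

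Lower in AAC + DAPA than in AAC, though within 1.5-fold, were Mrpl1, a protein of the stalk at the exit site, at 10.43 with sham, 10.64 with AAC and 10.21 with AAC + DAPA, and Mrpl32, at 9.39, 9.40 and 9.06. Mrpl32 is cut to its mature form by the m-AAA protease of the inner membrane. Its subunit genes Afg3l2 and Spg7 stood at 12.53, 12.53 and 12.56, and at 7.14 on all arrays. Mrps31 stood at 11.93, 11.87 and 11.53, the lowest value being that in AAC + DAPA.

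Compared with sham, 4 of the 76 genes were at least 1.5-fold lower in AAC + DAPA, 5.26%, against 3.38% of all genes, and 1, Mrps36, was 1.62-fold higher, 1.32%, against 3.22% of all genes. Among genes above the median of each array 4.74% were lower, so the count lay near that background. This comparison does not use the AAC array. The fibroblast markers had a median difference of −0.38 here, with Col3a1 at 10.25 with sham and 8.62 with AAC + DAPA. The 8 endothelial markers had a median of −0.05, with 1, Kdr, at least 1.5-fold lower, and the 12 macrophage and monocyte markers had 1 higher, Ccr2, and 1 lower, C1qa. The red blood cell marker Alas2 stood at 7.63 with sham and 8.63 with AAC + DAPA. Their part in the result was not tested. Mrps16 was 1.78-fold lower than in sham and Mrpl55 1.66-fold lower. The other 2 were Mrpl37, a mitochondria-specific protein at 9.78 with sham, 9.27 with AAC and 9.10 with AAC + DAPA, and Mrpl45, which holds the ribosome at the inner membrane, with 13.41, 13.00 and 12.79. Mrpl37 was 1.60-fold and Mrpl45 1.54-fold lower than in sham, and both had their lowest value in AAC + DAPA. The median difference was −0.04, with quartiles of −0.19 and 0.00, and 41 genes were lower, 17 higher and 18 equal. The shares below and above zero were 53.9% and 22.4%, against 35.0% and 33.9% of all genes. Taken without sign, the root mean square was 0.243, against 0.336 for all genes.

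**Figure D3:**
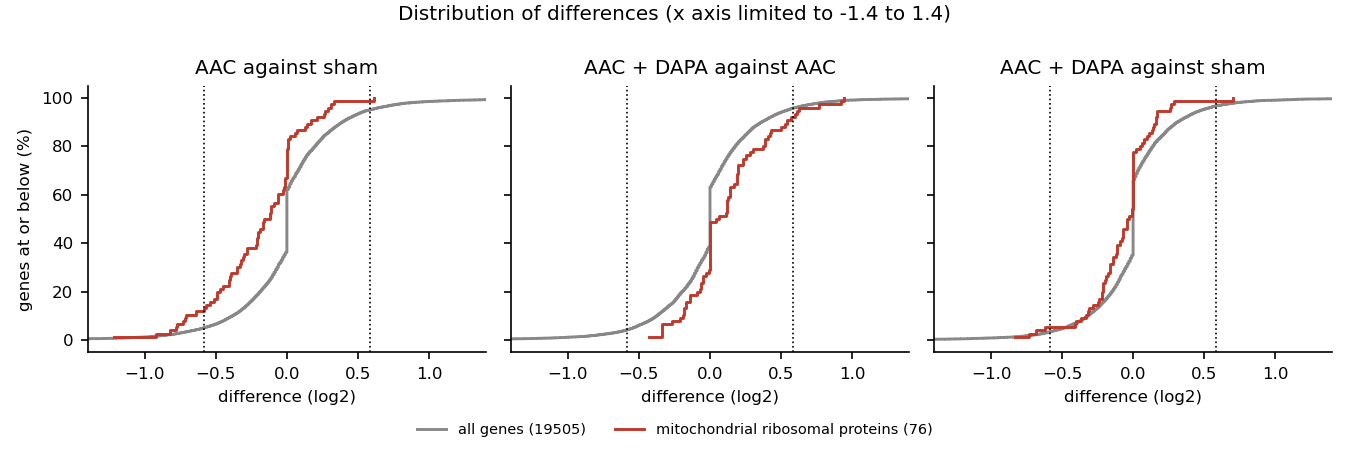
Share of genes (%) at or below a given difference (log2) in each comparison, for the 76 mitochondrial ribosomal protein genes (red) and all 19505 genes (grey), with dotted lines at 1.5-fold. The red line lies left of the grey one in AAC against sham, where the medians are −0.14 and 0.00, and right of it over most of its range in AAC + DAPA against AAC.

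By array, the AAC value was the lowest of the 3 for 36 genes, 47.4%, against 24.7% of all genes, and the highest for 12 genes, 15.8%, against 26.7%. The sham value was the highest for 37 genes, 48.7%, against 21.0% of all genes. Genes with AAC highest include Mrps7 at 10.71 with sham, 11.04 with AAC and 10.70 with AAC + DAPA and Mrps23 at 11.27, 11.54 and 11.27. Sham was the lowest for Mrpl39, at 10.46, 10.72 and 10.72, and for Mrpl30, at 12.15, 12.32 and 12.44. Highest in AAC + DAPA, by small differences, were also Mrps15 at 8.21, 8.01 and 8.38 and Mrps24 at 6.37, 6.31 and 6.54.

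For 8 genes the deposited value was the same on all arrays, 10.5%, against 14.9% of all genes. These were Mrpl2 at 10.54, Mrpl4 at 7.32, Mrpl44 at 9.46, Mrpl49 at 9.24, Mrpl52 at 7.65, Mrps12 at 7.18, Mrps22 at 8.33 and Mrps30 at 9.28. Mrpl44 has the fold of an RNA-cutting enzyme, and Mrps12 lies at the decoding centre. A further 10 genes had equal values in sham and AAC + DAPA only, and 7 in AAC and AAC + DAPA only. Equality to 2 decimals between separate arrays at this rate comes with the deposited values, whose normalization method is not given, so a difference of 0.00 is not read as a measured lack of difference. Mrpl3, at 11.63, 11.44 and 11.35, and Mrpl58, the peptidyl-tRNA hydrolase that frees stalled chains, at 11.43, 11.13 and 11.36, lay within the SD between probes for each comparison with AAC. For AAC + DAPA against sham the difference of Mrpl3 was −0.28, beyond the SD of 0.19.

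The ribosome holds proteins that do not carry the Mrp name, of which 4 of 5 listed were measured. Chchd1, a protein of the small subunit, stood at 8.96 with sham, 7.90 with AAC and 8.81 with AAC + DAPA. It was 2.08-fold below sham in AAC, and AAC + DAPA was 1.88-fold above AAC. Dap3, at 12.76, 12.76 and 12.80, Ptcd3, at 12.65, 12.74 and 12.78, and Gadd45gip1, at 5.04, 4.77 and 4.99, lay within 1.5-fold. Chchd1 thus had a larger difference between AAC and sham than any member but Mrps16.

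Of 14 genes listed with the translation factors, among them the elongation factors Tufm and Gfm1, 0 passed 1.5-fold in any comparison. Of 21 mitochondrial aminoacyl-tRNA synthetases and amidotransferase subunits, which load tRNAs with amino acids, 0 did. With all genes at 3.22% to 4.98% per direction and comparison, lists of this size would hold few such genes at the background share. Letm1, listed with the translation factors, passed in AAC against sham with centred arrays, at −0.61. Of the synthetases, Tars2 passed in both comparisons with AAC when arrays were centred on their medians, at −0.60 and 0.65, and Rars2 in AAC against sham after quantile normalization, at 0.59. Of 35 genes of ribosome assembly and mitochondrial RNA processing, 1 lay at least 1.5-fold below sham in AAC and 2 lay that far above it. These are 2.86% and 5.71%, near the shares of all genes. The lower one was Mrm3, which methylates the large ribosomal RNA, at 7.25 with sham, 6.19 with AAC and 6.49 with AAC + DAPA, 2.08-fold lower in AAC. The higher ones were Trub2, a pseudouridine synthase, at 6.81, 7.82 and 7.07, and the RNA-cutting enzyme Ybey, at 5.07, 5.70 and 5.08. With dapagliflozin both lay below their AAC value, by 1.68-fold and 1.54-fold, as did the assembly factor Rcc1l by 1.74-fold. These 3 of 35 are 8.57%, against 4.18% of all genes, and 0 were higher, against 4.16%. With centred arrays Ybey lay inside the threshold in both comparisons, at 0.57 and −0.55. Of 11 genes of mitochondrial DNA transcription and replication, Tfam, which packs mitochondrial DNA, stood at 9.21, 9.81 and 8.89. It was 1.52-fold above sham in AAC, a difference that was 0.54 and inside the threshold with centred arrays, and AAC + DAPA was 1.89-fold below AAC. The transcription factor Tfb2m was 1.60-fold higher in AAC, and the exonuclease Mgme1 was 1.59-fold lower, with AAC + DAPA 1.80-fold above AAC. Of the 11, 2 were thus higher and 1 lower in AAC, 18.2% and 9.09%, against 4.88% and 4.98% of all genes. For AAC + DAPA against AAC, 1 was higher and 1 lower, and with so few genes these shares are coarse. The median difference of all these lists lay between −0.06 and 0.04 in every comparison.

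Of 9 measured regulators of nuclear genes for mitochondria, Ppargc1a, a coactivator of mitochondrial biogenesis, stood at 17.18 with sham, 15.58 with AAC and 15.47 with AAC + DAPA, which put AAC 3.03-fold and AAC + DAPA 3.27-fold below sham. Its relative Ppargc1b stood at 8.66, 7.84 and 8.70, with AAC 1.77-fold below sham and AAC + DAPA 1.82-fold above AAC. The 2 coactivators thus differed in their AAC + DAPA value, which lay near AAC for the first and near sham for the second. The DNA-binding factor Nrf1 stood at 7.10, 6.77 and 6.99, Yy1 at 9.97, 10.09 and 9.93, Gabpb1 at 7.41, 7.31 and 7.18, and Gabpa at 13.23 on all arrays. Myc stood at 4.88, 4.89 and 4.89. Pprc1, another coactivator of the family, stood at 3.79, 4.16 and 3.79, higher in AAC where the other coactivators were lower, though within 1.5-fold. Its sham and AAC + DAPA values lay under the 25th percentile of their arrays, 3.81 on each, so its direction is uncertain. Perm1, a muscle regulator of mitochondrial genes, stood at 14.43, 13.95 and 13.73, with AAC + DAPA 1.62-fold below sham. Of the 9, 2 were at least 1.5-fold below sham in AAC and 2 in AAC + DAPA. Each is 22.2% of a short list, against 4.98% and 3.38% of all genes, and 0 were higher in either.

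Both neighbouring gene groups lay lower in AAC too. The 81 measured subunits of the respiratory chain and ATP synthase had a median difference of −0.18 between AAC and sham, with 9 at least 1.5-fold lower, 11.1%, against 11.8% of the mitochondrial ribosomal proteins. The 54 cytosolic ribosomal proteins had a median of −0.32, with 13 lower, 24.1%. For AAC + DAPA against AAC the medians were 0.07 and 0.18, with 3 and 7 genes higher, 3.70% and 13.0% against 4.16% of all genes, and for AAC + DAPA against sham −0.06 and −0.10. Whether the mitochondrial ribosomal proteins differ from these groups was not tested.

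The promoters were described apart from the expression values. RefSeq promoter entries, from 250 bases before to 50 after the start of transcription on GRCm38.p6, were found for 67 of the 76 genes. The letters CCGGAAG, the core that GABPA and other ETS factors bind, were present on either strand for 25 of the 67, 37.3%, against 13.2% of all 15691 measured genes with an entry. The letters GCGCATGC of the NRF1 motif were present for 8, 11.9%, against 4.10%, and AAGATGGCG of the YY1 motif for 8, 11.9%, against 2.23%. Other motifs were about as frequent as in all genes, with the E-box CACGTG at 7.46% against 9.26%, AAGGTCA of ERRA at 5.97% against 4.57% and CCAAT at 38.8% against 42.2%. Genes with 2 or more entries were counted once, and a match is a description of the letters, not a bound site. Between AAC and sham the 25 genes with CCGGAAG had a median difference of −0.28, with 4 at least 1.5-fold lower and 1 higher, and the 42 without had −0.11, with 4 lower. For the 8 genes with the NRF1 letters the median was 0.00 with 0 lower, and for the 59 without it was −0.17 with 8 lower. For the YY1 letters the medians were −0.11 with and −0.12 without, for the E-box −0.11 and −0.12, and for CCAAT −0.12 and −0.12. The 4 genes with the ERRA letters had −0.34, against −0.11 for the 63 without, and 0.39 against 0.00 for AAC + DAPA against AAC. For AAC + DAPA against AAC, 0 genes with CCGGAAG and 3 without were at least 1.5-fold higher. Of all genes, 4.98% passed the threshold downward between AAC and sham and 4.88% upward. Between AAC + DAPA and AAC, 4.16% of all genes passed it upward. At these shares, groups of 8 or 25 genes would hold few or no such genes, so the counts of 0 do not set these groups apart. No difference between genes with and without a motif was tested.

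**Figure D4:**
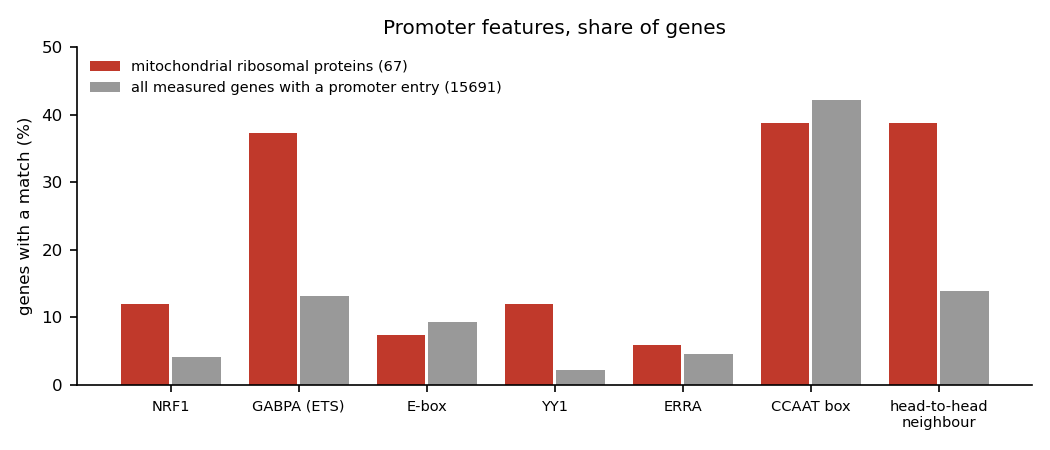
Share of genes (%) whose promoter entry holds each motif on either strand, and share with a head-to-head neighbour whose start lies within 1000 bases on the other strand, for 67 mitochondrial ribosomal protein genes (red) and 15691 measured genes with an entry (grey). CCGGAAG (GABPA) stands at 37.3% against 13.2% and a head-to-head neighbour at 38.8% against 13.8%.

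The promoters of Mrps16, Mrpl23, Mrpl55 and Mrps36 are shown because these genes had the largest differences among those with an entry, and those of Mrpl51, Mrps18c and Mrps11 as examples of matches, picked for them. Capitals mark matches to the searched motifs on either strand, read 5′ to 3′ along the strand of the gene, and the start of transcription is the base after the first 250. Mrps16 has 2 overlapping entries, of which the one with CCGGAAG is printed.
Mrps16, chr14:20393441-20393740, minus strand: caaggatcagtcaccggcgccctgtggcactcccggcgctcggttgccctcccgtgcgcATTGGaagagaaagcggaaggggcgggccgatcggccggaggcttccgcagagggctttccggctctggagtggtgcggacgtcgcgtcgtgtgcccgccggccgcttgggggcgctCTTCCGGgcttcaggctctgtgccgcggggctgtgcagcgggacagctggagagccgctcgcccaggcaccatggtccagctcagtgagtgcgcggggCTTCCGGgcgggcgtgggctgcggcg
Mrpl23, chr7:142532782-142533081, plus strand: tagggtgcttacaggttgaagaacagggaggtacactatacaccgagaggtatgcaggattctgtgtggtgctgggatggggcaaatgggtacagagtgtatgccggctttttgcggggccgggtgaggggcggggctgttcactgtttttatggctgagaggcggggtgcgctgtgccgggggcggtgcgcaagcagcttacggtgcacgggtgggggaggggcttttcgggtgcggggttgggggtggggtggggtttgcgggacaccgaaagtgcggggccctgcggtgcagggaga
Mrpl55, chr11:59202236-59202535, plus strand: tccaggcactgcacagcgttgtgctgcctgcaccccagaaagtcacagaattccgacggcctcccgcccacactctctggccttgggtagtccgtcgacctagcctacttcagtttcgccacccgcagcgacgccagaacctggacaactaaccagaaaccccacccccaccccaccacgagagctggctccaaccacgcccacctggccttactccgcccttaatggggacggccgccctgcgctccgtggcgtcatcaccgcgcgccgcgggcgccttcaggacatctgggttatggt
Mrps36, chr13:100744610-100744909, minus strand: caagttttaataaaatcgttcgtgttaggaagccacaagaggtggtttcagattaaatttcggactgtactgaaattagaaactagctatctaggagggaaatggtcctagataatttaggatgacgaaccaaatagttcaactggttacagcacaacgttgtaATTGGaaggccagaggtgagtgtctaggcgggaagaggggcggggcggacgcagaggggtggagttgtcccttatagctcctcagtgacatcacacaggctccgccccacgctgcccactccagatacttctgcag
Mrpl51, chr6:125191950-125192249, plus strand: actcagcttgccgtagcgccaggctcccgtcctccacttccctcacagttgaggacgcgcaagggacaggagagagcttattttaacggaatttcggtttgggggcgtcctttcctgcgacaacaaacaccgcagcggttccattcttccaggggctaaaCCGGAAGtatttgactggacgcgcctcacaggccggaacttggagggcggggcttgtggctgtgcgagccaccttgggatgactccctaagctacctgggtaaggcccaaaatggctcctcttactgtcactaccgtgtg
Mrps18c, chr5:100798509-100798808, plus strand: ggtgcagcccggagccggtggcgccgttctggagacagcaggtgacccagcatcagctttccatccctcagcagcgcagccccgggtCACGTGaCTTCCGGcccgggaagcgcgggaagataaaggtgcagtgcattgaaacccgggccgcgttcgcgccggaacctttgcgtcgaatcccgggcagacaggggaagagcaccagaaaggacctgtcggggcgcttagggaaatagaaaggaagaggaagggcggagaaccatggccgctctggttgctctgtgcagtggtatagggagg
Mrps11, chr7:78782881-78783180, plus strand: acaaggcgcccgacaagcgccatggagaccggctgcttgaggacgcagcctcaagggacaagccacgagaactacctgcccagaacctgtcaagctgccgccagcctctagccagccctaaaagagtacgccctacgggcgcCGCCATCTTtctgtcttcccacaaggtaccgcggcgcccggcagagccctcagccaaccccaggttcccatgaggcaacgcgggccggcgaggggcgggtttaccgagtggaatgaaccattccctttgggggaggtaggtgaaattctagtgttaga
Mrps16, 2.33-fold lower in AAC, has CTTCCGG, the reverse complement of CCGGAAG, on each side of the start in the printed entry. ATTGG of the CCAAT box lies further upstream. Its other entry, with a different start, has ATTGG but no CTTCCGG. Mrpl51 has 1 CCGGAAG. In Mrps18c the E-box CACGTG and CTTCCGG stand side by side. Mrpl23, which lay below sham in AAC and above AAC with dapagliflozin, has 0 of the searched motifs in this window, as has Mrpl55, and Mrps36 has only ATTGG of the CCAAT box, so the matches are not shared by all genes that differed.

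Of the 67 genes, 26 start head to head with another gene on the opposite strand within 1000 bases, 38.8%, against 13.8% of all genes with an entry. Mrps11 is shown because its neighbour is Mrpl46, another mitochondrial ribosomal protein, with 42 bases between the starts, and its window holds CGCCATCTT, the reverse complement of the YY1 motif. Mrps11 stood at 8.94 with sham, 8.83 with AAC and 8.83 with AAC + DAPA, and Mrpl46 at 7.94, 7.62 and 7.62. Both thus had equal values on the arrays of AAC and AAC + DAPA. Mrps12 starts 147 bases from Sars2, the mitochondrial seryl-tRNA synthetase, at 7.11, 7.05 and 7.11, and Mrpl43 starts 116 bases from Twnk, the helicase of mitochondrial DNA, at 5.57 on all arrays. Mrpl47 starts 308 bases from the complex I subunit Ndufb5, at 15.04, 14.73 and 15.05, while Mrpl47 itself stood at 12.00, 11.99 and 11.82. Of neighbours outside mitochondria, Helq, a DNA helicase 159 bases from Mrps18c, stood at 5.09, 5.56 and 5.09, higher in AAC where Mrps18c was lower, and Gga3, 224 bases from Mrps7, at 6.78, 6.13 and 6.59, lower in AAC where Mrps7 was higher. Ncapd2, 614 bases from Mrpl51, and Ighmbp2, 32 bases from Mrpl21, lay in the direction of their neighbour, at 5.48, 5.26 and 5.74 and at 6.11, 5.68 and 6.11. Over all 22 measured pairs, member and neighbour lay in the same direction in AAC against sham in 9, in opposite directions in 7, and in 6 at least 1 of them had equal values. For AAC + DAPA against AAC these counts were 6, 7 and 9. The pairs named were picked with their values known. The spans of Mrpl43 and Twnk, of Mrps7 and Gga3, and of Mrpl21 and Ighmbp2 also overlap, so a probe may read either strand there.

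Some probes may read more than 1 gene. RefSeq lists 6 pseudogenes named after these genes, 3 of Mrps36 and 1 each of Mrpl23, Mrpl27 and Mrpl48, so the values of these 4 genes are uncertain. Of the 15 genes that passed 1.5-fold in any comparison, Mrpl37 overlaps another gene, Cyb5rl, and how strand was treated remains not given in the sources used here. The genes Mrpl53 and Mrps6 were not analysed here.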

How the data were processed

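Heart RNA was measured on 3 arrays, 1 each for sham, AAC and AAC + DAPA, and samples were grouped by their treatment label. The authors deposited log2 expression values, already normalized, 1 per probe and array. Affymetrix Expression Console is named in the processing notes of the submitters, while the normalization method remains not given in the sources used here. The study's methods name an Affymetrix PrimeView array and an Agilent protocol, whereas the probes name mouse genes. Array medians were 5.24, 5.30 and 5.23. The number of arrays limits the precision.

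Probes with 1 gene symbol (19572 of 22206) were averaged per gene. All 76 members matched RefSeq by Entrez identifier with the same symbol. Genes 1.5-fold or more apart were counted, as in the study, with no filter and no test. Named were members past 1.5-fold, the Mrps18 family, members with the smallest range, those furthest apart on an array and a few by role, and of other lists those past 1.5-fold (at most 4 per list and comparison) and the regulators. Other genes named were chosen after their values were seen, as were the promoters of Mrpl51, Mrps18c and Mrps11. The members and lists were chosen with earlier results of these data known. The counting was tested on simulated arrays. Alternatives were centring, quantile normalization, the brightest probe, single probes, level filters, and thresholds of 0.3219 on the log2 scale and of 2-fold. Leaving out Mrps36 or genes equal on all arrays was added after the data were seen. Python 3.11.15, numpy 2.4.6, pandas 2.3.3 and matplotlib 3.10.9 were used.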

Additional observations from a re-analysis of the deposited data

How the results depend on the processing

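Each member has 1 probe and none lies under the 25th percentile, so the choice of probe and that filter could not move a member value. Under the other 7 alternatives, 40 of 57 results over all members stayed within 1.5 times their value and 17 did not. Part of the 40 were fixed in advance. Leaving out genes equal on all arrays, or those under the median, Mrpl36 and Mrpl54, removes no gene past 1.5-fold. The counts under these alternatives could therefore not change, and the 40 are not a measure of stability. With each array centred on its median, 12 genes were lower and 0 higher in AAC than in sham (6.05% and 3.99% of all genes), and the median difference for AAC + DAPA against AAC was 0.12, with all genes at 0.07. Quantile normalization gave medians of 0.0933 for AAC + DAPA against AAC, with all genes at 0.0233, and −0.0233 for AAC + DAPA against sham. At 2-fold, 1 gene, Mrps16, was lower and 0 were higher in AAC than in sham. This is 1.32% lower against 1.24% of all genes, so the higher share of lower genes was absent. In the other comparisons 0 passed in either direction. Of all genes, 0.831% were higher and 1.16% lower for AAC + DAPA against AAC, and 0.872% and 0.851% against sham. At these shares 76 genes would hold few or none, so the counts of 0 do not set the members apart. At a threshold of 0.3219 on the log2 scale, 24 were lower and 2 higher in AAC than in sham (12.2% and 12.7% of all genes). AAC + DAPA against AAC then gave 16 higher and 5 lower (11.4% and 12.3%). Against sham there were 8 lower and 1, Mrps36, higher (9.74% and 9.48%). Of 2 alternatives added after the data were seen, leaving out Mrps36 left 0 genes higher in AAC + DAPA than in sham. Leaving out genes equal on all arrays gave medians of 0.12 for AAC + DAPA against AAC and −0.07 for AAC + DAPA against sham. Keeping only genes above the median moved no count, and could not, because Mrpl36 and Mrpl54, the members dropped, lay within 1.5-fold in every comparison. Over 189 genes (all members, the other translation lists, the regulators and neighbours), no difference moved by more than 0.0767 under either scaling. Centring lost 3 and gained 5 genes past 1.5-fold in AAC against sham, and lost 2 and gained 4 in AAC + DAPA against AAC. Marker, cytosolic ribosomal and respiratory chain genes were not part of that check. No paired analysis was possible because each group has 1 array. With 1 array per group, the spread between animals is unknown.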
